A study of Mus musculus with 36 samples.

Results

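The lot 12 male line of Nf1-/- DNp53 astrocytes was set against the lot 8 male line, the pair of male lines that differed most in the level of smooth-muscle contractile genes. The pair was selected on those levels, so every difference between its libraries is given below as a description, without a p-value. It comprised 7 of the 36 libraries of the series: 3 of the lot 12 male line and 4 of the lot 8 male line. The series profiled mouse astrocytes that lack Nf1 and carry DNp53, a dominant-negative form of p53, from 5 lots, each lot a separate litter with 1 female and 1 male line. The lot 12 male, lot 8 male, lot 12 female and lot 8 female lines used here share that genotype and were grown in DMEM/F12 medium with serum. No treatment distinguished them. The lot 12 female line (3 libraries) and the lot 8 female line (4 libraries) come from the same litters, and the selection did not use them; they therefore gave the test of whether a difference between the male lines was also found between other cells of the litters. With 1 line per lot and sex, litter and line cannot be told apart. Whether the libraries of one line came from separate cultures is not stated. Adjusted p-values thus measure the spread between libraries, which may be technical.

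Contractile proteins are the parts of the actin and myosin apparatus of smooth muscle. They include smooth-muscle actins and the light chains of the myosin that moves along them. Tropomyosins and calponins line the filaments, and leiomodins start them. The genes of these contractile proteins are classic targets of the serum response factor SRF. SRF is switched on with its cofactor MRTF when cells assemble actin filaments. Tension on the same filaments also lets YAP and its partner TEAD turn on genes such as Ccn2, which encodes a secreted matricellular protein, and F3, which encodes tissue factor. Together with TGF-beta signalling and a collagen-rich matrix, the contractile genes mark the myofibroblast state. Astrocytes in the brain normally express few of the contractile genes. Because expression was measured in bulk, fewer cells of a type and less RNA per cell cannot be told apart.

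RNA was read by BRB-seq, which counts the 3' ends of polyadenylated transcripts in barcoded pools. Totals of the 7 male libraries ranged from 4539982 to 7145432 counts, with 12702 to 14177 genes detected, and a gene with 3 counts stood at 0.420 to 0.661 CPM (counts scaled to library size, here with TMM factors). Replicate 3 of both lot 12 lines stood apart from the other libraries of its line, with the highest scaling factor (1.11 in the male line and 1.13 in the female line) and the most genes detected. Replicate 4 of both lot 8 lines had the lowest share of mitochondrial mRNA of its line, at 0.251% in the male line and 0.324% in the female line. The same held for replicate 4 of the lot 7 and lot 11 lines, at 0.315% to 0.349%. The lot 12 lines have no replicate 4. List counts were repeated without lot 12 replicate 3 or lot 8 replicate 4. A count of 3 or more list members that then moved by over 1.5 times is given both ways. Smaller counts that moved by 2 are given too, and the other small counts moved by at most 1. Nf1 (chromosome 11, 79339693 to 79581612, GRCm38), a brake on Ras signalling, averaged 1.55 ± 1.36 CPM in the lot 12 male line and 1.44 ± 0.483 CPM in the lot 8 male line; which part was deleted is not given in the sources used here, so this 3' level is no check of the genotype. Trp53 averaged 203 ± 5.33 CPM in lot 12 males and 252 ± 17.5 CPM in lot 8 males.

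The selection can be read from the summed CPM of the 13 contractile genes that could be tested. The sum averaged 22244 ± 1589 CPM in the lot 12 male line and 5768 ± 634 CPM in the lot 8 male line (SD over libraries), the highest and the lowest of the 5 male lines. The lot 6, 7 and 11 male lines lay between them, at 10636 ± 1625, 7619.8 ± 362 and 10611 ± 1409 CPM. By Acta2 alone the lot 7 male line was lower still, at 1331 ± 188 CPM. Of the female lines, lot 12 reached 20361 ± 3172 CPM and lot 8 reached 7499 ± 624 CPM, and the highest sum of the 10 lines was that of the lot 6 female line, at 32053 ± 1591 CPM.

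Promoters of the contractile genes are shown because these genes moved together and have known regulators. RefSeq windows of 300 bases (250 before and 50 after the start, GRCm38.p6) were searched on both strands for the CArG box bound by SRF and for the TEAD motif GGAATG. The CArG box was counted only as an exact string: CC, 6 bases of A or T, then GG. Strings with 1 mismatch were not counted, such as ccctatatgg and ccttgtttgg in the Acta2 bases below. An exact CArG box was found in 1 of the 12 contractile genes with a window (8.33%), against 1.81% of the 27025 genes with a window. The TEAD motif was found in 6 of the 12 (50%), among them Smtn, which ran against the other genes below, and in 8 of 16 YAP-TEAD targets (50%), against 16.6% of all genes. A match is a string of letters and not a shown binding site. The 250 bases before the start are given for the gene with the CArG box and for 3 genes with the TEAD motif, 5′ to 3′ on the gene's own strand, with the motif in capitals.
Myl9 (chr2:156775214-156775463, plus strand, CArG box): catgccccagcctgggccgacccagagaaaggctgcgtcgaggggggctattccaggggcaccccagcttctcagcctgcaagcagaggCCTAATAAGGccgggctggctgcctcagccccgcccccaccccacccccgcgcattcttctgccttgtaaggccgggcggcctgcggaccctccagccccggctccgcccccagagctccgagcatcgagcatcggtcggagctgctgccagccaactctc
Acta2 (chr19:34255374-34255623, minus strand, TEAD motif): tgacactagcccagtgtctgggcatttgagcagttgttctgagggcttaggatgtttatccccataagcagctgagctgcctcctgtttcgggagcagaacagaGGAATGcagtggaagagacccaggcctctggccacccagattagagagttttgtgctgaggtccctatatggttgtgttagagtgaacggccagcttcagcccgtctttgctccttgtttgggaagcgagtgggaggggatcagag
Lmod1 (chr1:135324563-135324812, plus strand, TEAD motif): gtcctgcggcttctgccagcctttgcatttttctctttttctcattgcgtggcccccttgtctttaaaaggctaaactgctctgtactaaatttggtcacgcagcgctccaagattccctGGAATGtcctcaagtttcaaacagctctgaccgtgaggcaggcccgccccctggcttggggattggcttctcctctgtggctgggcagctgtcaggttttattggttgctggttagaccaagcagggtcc
Cald1 (chr6:34598254-34598503, plus strand, TEAD motif): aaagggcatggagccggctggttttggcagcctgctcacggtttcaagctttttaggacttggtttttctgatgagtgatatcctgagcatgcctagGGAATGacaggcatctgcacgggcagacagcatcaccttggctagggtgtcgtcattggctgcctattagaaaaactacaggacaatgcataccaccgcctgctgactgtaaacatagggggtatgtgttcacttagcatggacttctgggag
The first base of the CArG box lies 161 bases before the start in Myl9. The first base of the TEAD motif lies 146 bases before the start in Acta2, 130 in Lmod1 and 153 in Cald1, and in the other contractile genes that hold it 56 in Tpm1, 158 in Mylk and 222 in Smtn.

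Smooth-muscle actin and its filament partners were several-fold higher in the lot 12 male line. Acta2 (chromosome 19, 34241090 to 34255590, GRCm38), the smooth-muscle alpha-actin, had 10513, 12514 and 9755 CPM in the 3 lot 12 male libraries, against 1597, 1777, 2444 and 2174 CPM in the 4 lot 8 male libraries. The lowest lot 12 library was therefore well above the highest lot 8 library, and the log2 fold change was 2.45 ± 0.15 (SE). Tpm2 (chromosome 4, 43514711 to 43523765), the beta-tropomyosin that lies along actin filaments, had 861, 709 and 929.5 CPM in lot 12 males and 39.7, 54.5, 34.6 and 42.04 CPM in lot 8 males, a log2 fold change of 4.28 ± 0.18. Myl9 (chromosome 2, 156775420 to 156781658), the regulatory light chain of smooth-muscle myosin, had 1174, 1334 and 1324 CPM in lot 12 males and 38.6, 45.8, 61.02 and 50.4 CPM in lot 8 males, a log2 fold change of 4.70 ± 0.30. For these genes the libraries of the lines did not overlap, and the gap was wider for the tropomyosin and the light chain than for the actin. Tagln, the actin-bundling transgelin, followed with 1361, 1915 and 1593 CPM in lot 12 males and 211, 274, 260.1 and 436 CPM in lot 8 males.

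**Figure D1:**
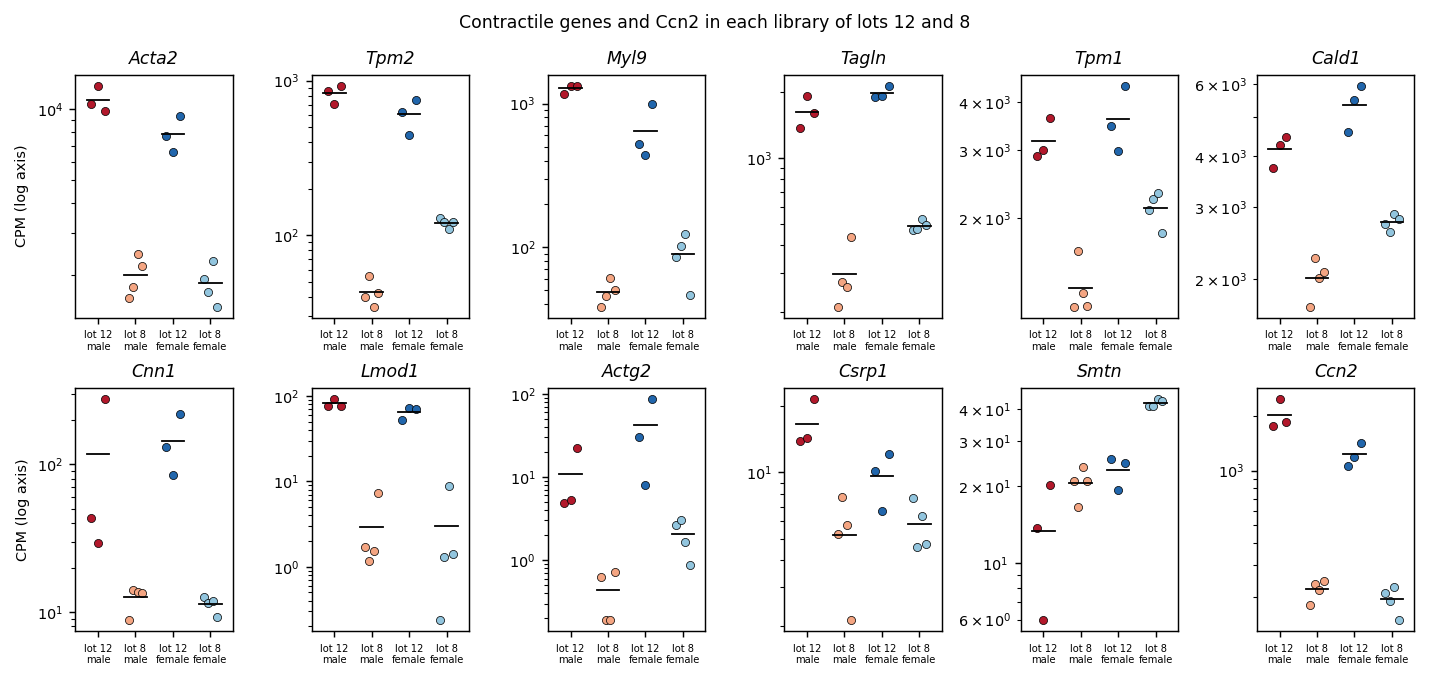
CPM on a log axis of 11 contractile genes and Ccn2 in each library (points; bars are means) of the lot 12 male, lot 8 male, lot 12 female and lot 8 female lines, each panel with its own axis. Lot 12 libraries sit above lot 8 libraries in each sex for Acta2, Tpm2, Myl9, Tagln, Tpm1, Cald1, Cnn1, Lmod1, Actg2 and Ccn2, Csrp1 overlaps in females, and Smtn is lower in lot 12 females.

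Other contractile genes were low or nearly silent in the lot 8 male line. Lmod1, the leiomodin of smooth muscle, had 76.8, 92.8 and 76.7 CPM in lot 12 males and 1.69, 1.16, 1.53 and 7.304 CPM in lot 8 males, where replicate 4 alone held most of the signal. Actg2, the enteric smooth-muscle actin, had 21, 37 and 149 counts in lot 12 male libraries and 3, 1, 1 and 4 counts in lot 8 male libraries. Calponin 1 (Cnn1), which damps actomyosin, had 43.4, 29.2 and 278 CPM in lot 12 males and 8.86, 14.1, 13.8 and 13.5 CPM in lot 8 males. Replicate 3 was far above the other lot 12 male libraries, and even the lowest lot 12 library was above the lot 8 male libraries. The broadly expressed filament genes moved less: Tpm1, alpha-tropomyosin, averaged 3183 ± 404 CPM in lot 12 males and 1324 ± 221 CPM in lot 8 males, and caldesmon (Cald1) averaged 4158 ± 370.4 and 2017 ± 226 CPM in these lines. Csrp1, a LIM protein of smooth muscle, averaged 16.6 ± 4.303 CPM in lot 12 males and 5.21 ± 2.31 CPM in lot 8 males. Smoothelin (Smtn) was the tested member with a value in the other direction, at 13.3 ± 7.14 CPM in lot 12 males and 20.5 ± 2.95 CPM in lot 8 males, with overlapping libraries. Tagln overlaps Pcsk7, and reads of overlapping genes may be shared. Of the 15 listed genes, Myh11 and Des were too low to test, and Mylk and Synpo2 lay near the floor of 3 counts in most libraries. Lmod1 had a male log2 fold change of 5.80 (against 4.77 with all libraries) without lot 8 male replicate 4. Actg2 had a male log2 fold change of 3.498 (against 4.59 with all libraries) and Cnn1 of 1.52 (against 3.22) without lot 12 male replicate 3.

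Between the female lines of the same litters, 9 of the 13 tested contractile genes rose in lot 12 and 1 fell (edgeR's quasi-likelihood test, Benjamini-Hochberg adjusted over 12173 genes). The background over all tested genes was 8.54% higher and 7.34% lower in that pair. In the male pair, genes counted here and below as higher or lower are those past the same threshold, as a description. There 11 of the 13 were higher and 0 lower (11 and 1 without lot 12 male replicate 3), for genes that the selection used, and the shares over all genes were 11.7% and 9.67%. None of the 9 female rises lost its call when a single female library was left out. Acta2 had 7683, 6589 and 9318 CPM in the lot 12 female libraries, against 1924, 1702, 2287 and 1475 CPM in the lot 8 female libraries, a log2 fold change of 2.09 ± 0.15 (adjusted p = 1.19e-13). Tpm2 averaged 609 ± 155 CPM in lot 12 females and 121 ± 8.496 CPM in lot 8 females (log2 fold change 2.33 ± 0.17, adjusted p = 1.49e-13), and Myl9 averaged 649 ± 296 and 89.3 ± 32.5 CPM in these lines (log2 fold change 2.86 ± 0.28, adjusted p = 5.06e-10). Tagln rose by 2.01 ± 0.17 (adjusted p = 2.07e-11), Lmod1 by 4.37 ± 0.51 (adjusted p = 4.50e-08), Cnn1 by 3.68 ± 0.45 (adjusted p = 8.29e-08) and Actg2 by 4.37 ± 0.61 (adjusted p = 1.39e-06), all on the log2 scale. Tpm1 and Cald1 rose least, by 0.77 ± 0.12 and 0.95 ± 0.11 (adjusted p = 1.24e-05 and 2.33e-08). Csrp1 had a log2 fold change of 0.73 ± 0.35 that did not pass (adjusted p = 0.161), with overlapping libraries. Smtn fell, with 25.4, 19.3 and 24.6 CPM in lot 12 females and 41.3, 41.00, 43.9 and 42.9 CPM in lot 8 females (log2 fold change -0.87 ± 0.24, adjusted p = 0.00931); without lot 12 female replicate 2 its adjusted p was 0.0604. Whether a fold change differed between the male and the female pair was not tested, and since the male lines were picked as extremes, sizes are not compared between the sexes. Lmod1 had a female log2 fold change of 5.96 (against 4.37 with all libraries) without lot 8 female replicate 3. Actg2 had a female log2 fold change of 3.24 (against 4.37 with all libraries) without lot 12 female replicate 3.

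Across all 12173 genes tested, 2596 (21.3%) passed the threshold between the male lines, 1419 higher in lot 12 (11.7%) and 1177 lower (9.67%). Scaling by library totals alone turned this split into 1709 higher and 887 lower, or 65.8% against 54.7% higher. Between the female lines 1932 genes passed (15.9%), of which 1039 were higher in lot 12 (8.54%) and 893 lower (7.34%), or 1262 and 719 with library totals alone. The median log2 fold change over all genes was 0.02 in each pair, and scaling by library totals alone moved it to 0.13 in males and 0.10 in females. Of the genes that passed between the male lines, 896 also passed in the same direction between the female lines, which is 34.5% of the male list and 46.4% of the female list. Another 71 passed in opposite directions. The pairs share no library.

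**Figure D2:**
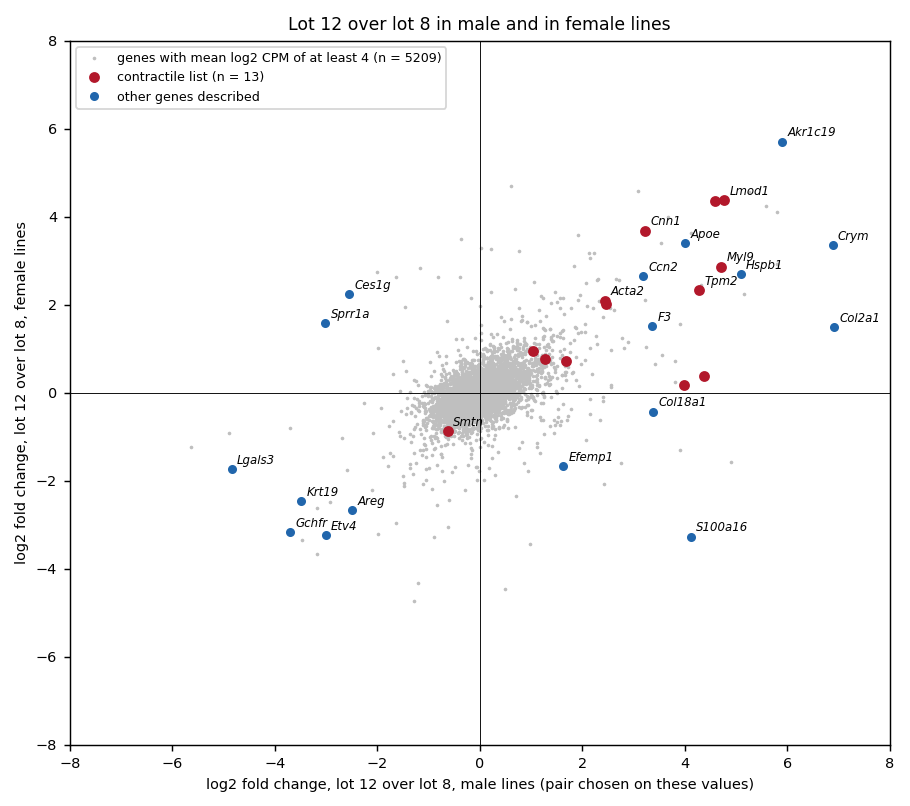
Log2 fold change of lot 12 over lot 8 in the male lines (horizontal axis) and in the female lines (vertical axis); grey points are the 5209 genes whose average log2 CPM reached 4, red points the 13 contractile genes tested, and blue points other genes described. Most contractile genes lie at the upper right, Lgals3, Gchfr, Krt19, Areg and Etv4 at the lower left, and S100a16, Efemp1 and Col18a1 at the lower right.

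Around the contractile genes, the wider actin cytoskeleton was also higher. Of 24 cytoskeletal genes and SRF cofactors, 15 were higher and 1 lower between the male lines, with a median log2 fold change of 0.67; between the female lines 9 rose and 1 fell, with a median of 0.42. Without lot 12 female replicate 3, 5 rose and the fall lost its call. Palladin (Palld), which bundles actin in stress fibres, averaged 438 ± 114 CPM in lot 12 males and 119 ± 9.69 CPM in lot 8 males, and it rose in lot 12 females by 1.46 ± 0.15 (adjusted p = 3.20e-09). The non-muscle myosin heavy chain Myh9 averaged 352 ± 83.5 CPM in lot 12 males and 129 ± 35.7 CPM in lot 8 males, and its female log2 fold change of 0.58 ± 0.28 did not pass (adjusted p = 0.166). Its relative Myh10 averaged 96.3 ± 44.9 CPM in lot 12 males and 38.6 ± 14.96 CPM in lot 8 males. In females Myh10 rose by 1.06 ± 0.29 (adjusted p = 0.00963), a call lost without lot 12 female replicate 3 (adjusted p = 0.253).

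Of the 22 YAP-TEAD targets, 8 were higher and 1 lower between the male lines, and 10 rose and 3 fell between the female lines, with medians of 0.57 and 0.58. Without lot 12 female replicate 3, 6 rose and 3 fell. The listed targets Ccn1 (log2 fold change 0.23), Ankrd1 (0.35) and Axl (-0.11) were not called in the male pair. Between the female lines Ccn1 (0.76) and Ankrd1 (1.02) rose, and Axl (-0.30) was not called. Nt5e fell in lot 12 females (-4.18) and was not called in males (-1.31). Ccn2 (chromosome 10, 24595442 to 24598683), a matricellular protein that promotes fibrosis, had 1752, 2479.8 and 1841 CPM in lot 12 males and 181, 238, 220.2 and 247 CPM in lot 8 males. The libraries did not overlap and the log2 fold change was 3.19 ± 0.17. In females Ccn2 had 1064, 1193 and 1424 CPM in lot 12 and 210.4, 191, 229 and 151 CPM in lot 8, a log2 fold change of 2.65 ± 0.17 (adjusted p = 5.06e-15). F3 (chromosome 3, 121723537 to 121735048), tissue factor, had 188, 257 and 231 CPM in lot 12 males and 12.4, 24.3, 25.2 and 24.9 CPM in lot 8 males, where replicate 1 was lower than the other 3. It rose in lot 12 females, with 139.5 ± 17.9 CPM against 48.8 ± 6.69 CPM in lot 8 females (log2 fold change 1.51 ± 0.19, adjusted p = 1.28e-07). Igfbp3, an insulin-like growth factor binding protein also listed as a YAP target, went the other way, with 4.88 ± 1.84 CPM in lot 12 males and 30.4 ± 4.71 CPM in lot 8 males, and fell in lot 12 females by 1.76 (log2 fold change -1.76 ± 0.38, adjusted p = 9.81e-04).

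The pathway's own components differed little. Of 14 YAP, TEAD and Hippo genes, 2 were higher and 1 lower between the male lines and 1 rose between the female lines. The member called in both was Vgll3, a TEAD cofactor, which averaged 44.7 ± 10.6 CPM in lot 12 males and 11.3 ± 2.55 CPM in lot 8 males. In females Vgll3 rose by 1.38 ± 0.23 (adjusted p = 4.00e-05). Nf2, the Hippo activator merlin, averaged 20.3 ± 1.14 CPM in lot 12 males and 32.7 ± 5.05 CPM in lot 8 males, and its female log2 fold change was 0.36 ± 0.23 (adjusted p = 0.325).

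Ligands and targets of TGF-beta, the main inducer of contractile genes in fibroblasts, were higher as well. Of 21 genes, 9 were higher between the male lines, and 8 of these 9 rose between the female lines, where 2 other genes fell. Tgfb2, a TGF-beta ligand, had 65.2, 80.3 and 84.3 CPM in lot 12 males and 10.8, 14.3, 14.9 and 20.7 CPM in lot 8 males. It rose in lot 12 females by 2.09 ± 0.29 (adjusted p = 9.40e-07). Inhba, the activin A subunit, averaged 133 ± 30.6 CPM in lot 12 males and 50.5 ± 11.2 CPM in lot 8 males and rose in lot 12 females by 1.27 ± 0.24 (adjusted p = 1.90e-04). The signal transducer Smad3 averaged 15.8 ± 2.55 CPM in lot 12 males and 5.898 ± 1.101 CPM in lot 8 males, with a female log2 fold change of 0.01 ± 0.32 (adjusted p = 0.994). Of 15 BMP and Id genes, 4 were higher between the male lines, and 2 rose and 1 fell between the female lines, or 1 and 1 without lot 12 female replicate 3. Bmp4, a BMP ligand, averaged 60.8 ± 34.1 CPM in lot 12 males and 17.5 ± 4.05 CPM in lot 8 males, with a female log2 fold change of 0.45 ± 0.31 (adjusted p = 0.36).

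**Figure D3:**
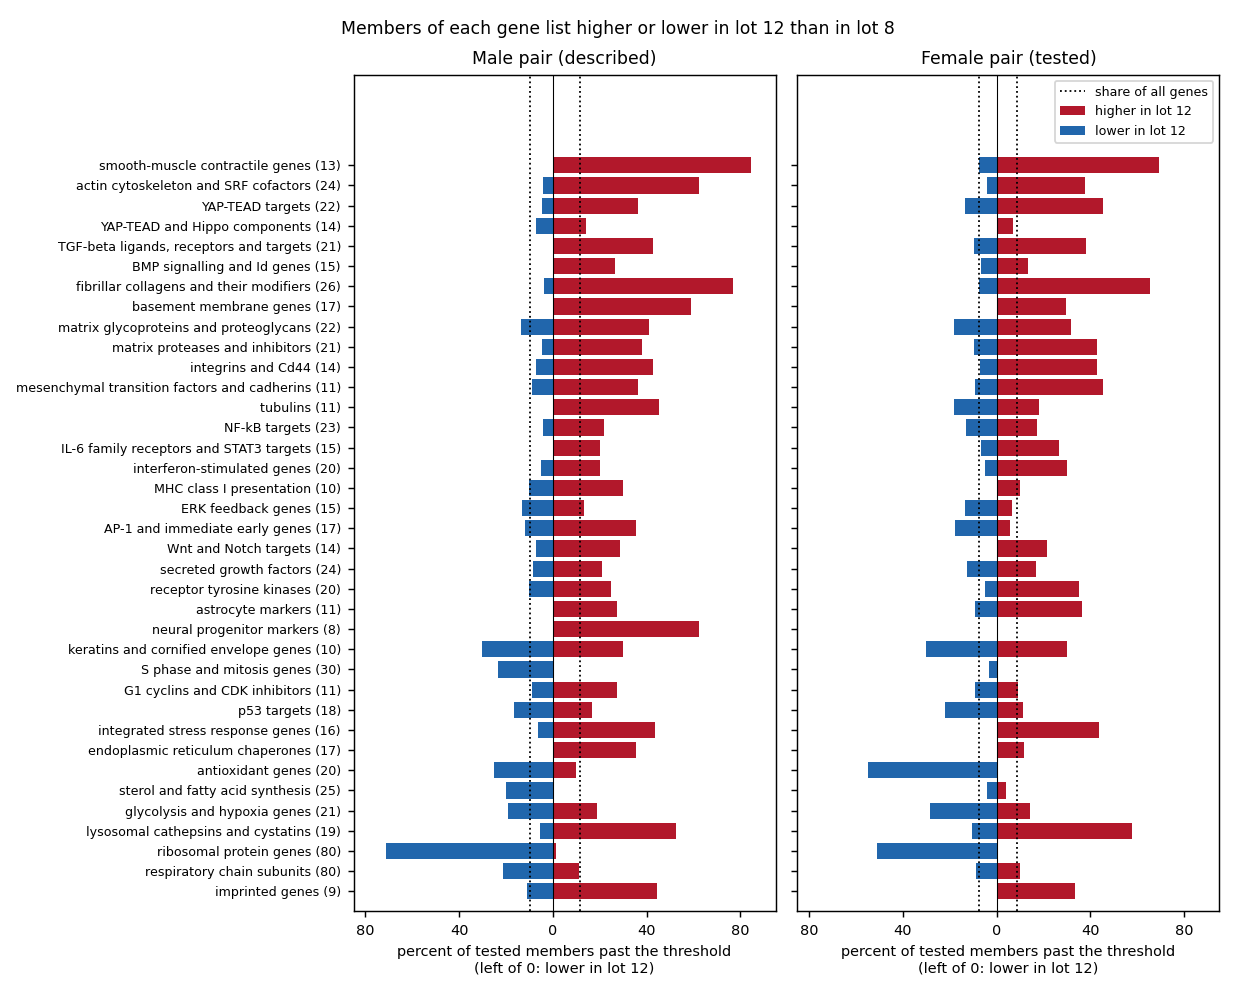
Percent of the tested members (number in brackets) of each gene list with at least 8 tested members that passed the threshold higher (red, right of 0) or lower (blue, left of 0) in lot 12, for the male pair, which is a description, and for the female pair; dotted lines are the shares over all genes (11.7% and 9.67% in males, 8.54% and 7.34% in females). Of the lists drawn, contractile genes and fibrillar collagens have the longest red bars in each panel, and ribosomal protein and antioxidant genes the longest blue bars in females.

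Collagen and its crosslinking enzymes formed the largest matrix group. Of 26 fibrillar collagens and modifiers, 20 were higher and 1 lower between the male lines (median 1.22), and 17 rose and 2 fell between the female lines (median 1.24), or 13 and 2 without lot 12 female replicate 3. Lox, the lysyl oxidase that crosslinks collagen and elastin, had 134, 245 and 169 CPM in lot 12 males and 13.7, 6.36, 7.84 and 8.91 CPM in lot 8 males, a log2 fold change of 4.32 ± 0.27. It rose in lot 12 females, with 235 ± 55.7 CPM against 42.9 ± 3.72 CPM in lot 8 females (log2 fold change 2.46 ± 0.24, adjusted p = 6.70e-10). Col12a1, a collagen that sits on fibril surfaces, averaged 113 ± 17.5 CPM in lot 12 males and 7.43 ± 5.81 CPM in lot 8 males. In females Col12a1 rose by 1.57 ± 0.35 (adjusted p = 0.00144, or 0.0579 without lot 12 female replicate 3). Col11a1, a minor fibrillar collagen, averaged 14.3 ± 17.3 CPM in lot 12 males and 1.85 ± 0.977 CPM in lot 8 males. In females Col11a1 rose by 3.13 ± 0.54 (adjusted p = 5.06e-05). The main fibrillar collagen Col1a1 had overlapping libraries in males, at 121 ± 23.3 CPM in lot 12 and 79.6 ± 21.7 CPM in lot 8. In females it averaged 195 ± 71.3 CPM in lot 12 and 7.49 ± 1.71 CPM in lot 8 (log2 fold change 4.69 ± 0.36, adjusted p = 1.30e-12). Col1a2, the other type I collagen chain, fell in lot 12 females (log2 fold change -3.45). Its male value of 0.98 was not called. Loxl1, a relative of Lox, also fell in lot 12 females (-1.78) but was higher in lot 12 males (0.94). Col12a1 had a male log2 fold change of 4.63 (against 3.91 with all libraries) without lot 8 male replicate 4. Col11a1 had a male log2 fold change of 1.24 (against 2.96 with all libraries) without lot 12 male replicate 3. Col11a1 had a female log2 fold change of 2.22 (against 3.13 with all libraries) without lot 12 female replicate 3.

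Several basement membrane genes were higher too. Of 17, 10 were higher between the male lines (median 1.33), and 5 rose between the female lines (median 0.42), or 3 without lot 12 female replicate 3. Nid1, the laminin-binding nidogen, averaged 12.1 ± 1.25 CPM in lot 12 males and 1.23 ± 0.408 CPM in lot 8 males. In females Nid1 rose by 3.35 ± 0.65 (adjusted p = 2.55e-04). Col18a1, the collagen that yields endostatin, had 86.8, 148 and 59.9 CPM in lot 12 males and 7.81, 12.1, 9.18 and 8.37 CPM in lot 8 males, whereas in females it had 24.7, 26.6 and 20.2 CPM in lot 12 and 33.9, 30.7, 31.1 and 33.1 CPM in lot 8 (log2 fold change -0.43 ± 0.25, adjusted p = 0.262). Its gene body overlaps Slc19a1 on the opposite strand, and whether reads were assigned by strand is not stated.

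Some elastic-fibre proteins and some members of the protease and inhibitor list were higher as well. Of 22 matrix glycoproteins and proteoglycans, 9 were higher and 3 lower between the male lines, and 7 rose and 4 fell between the female lines. The summed list averaged 2657 CPM in lot 12 males and 2657 CPM in lot 8 males. Fbln5, which organises elastic fibres, averaged 109.6 ± 17.8 CPM in lot 12 males and 22.2 ± 6.04 CPM in lot 8 males and rose in lot 12 females by 2.58 ± 0.20 (adjusted p = 1.01e-12). Fbln2, another fibulin, averaged 278 ± 55.2 CPM in lot 12 males and 63.1 ± 12.01 CPM in lot 8 males. In females Fbln2 rose by 3.18 ± 0.24 (adjusted p = 6.42e-13). Of 21 matrix proteases and inhibitors, 8 were higher and 1 lower between the male lines, and 9 rose and 2 fell between the female lines. The lower gene of the male pair was Timp1 (log2 fold change -0.66), which rose in lot 12 females (0.83). The summed list averaged 3224 CPM in lot 12 males and 3885 CPM in lot 8 males. In females it averaged 6589 CPM in lot 12 and 3772.5 CPM in lot 8. Serpinf1, the anti-angiogenic pigment epithelium-derived factor, averaged 242 ± 66.9 CPM in lot 12 males and 18.999 ± 2.52 CPM in lot 8 males. In females Serpinf1 rose by 3.99 ± 0.26 (adjusted p = 1.47e-14). Timp3, a metalloproteinase inhibitor, averaged 96.7 ± 12.5 and 21.7 ± 4.06 CPM in the lot 12 and lot 8 males and rose in lot 12 females by 3.05 ± 0.23 (adjusted p = 5.52e-13). The membrane collagenase Mmp14 averaged 81.9 ± 18.2 CPM in lot 12 males and 29.02 ± 2.21 CPM in lot 8 males. In females Mmp14 rose by 1.28 ± 0.21 (adjusted p = 3.04e-05).

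Several receptors for this matrix were higher too. Of 14 tested genes, integrins and Cd44 together, 6 were higher and 1 lower between the male lines. Between the female lines 6 rose and 1 fell. The lower gene of the male pair was Cd44 (log2 fold change -0.37), and the gene that fell in lot 12 females was Itga3 (-1.09). Itga11, the chain of a fibrillar collagen receptor, had 12.5, 11.7 and 15.9 CPM in lot 12 males and 0.422, 0.193, 1.91 and 3.38 CPM in lot 8 males and rose in lot 12 females by 4.96 ± 0.66 (adjusted p = 5.02e-07). Itgb1, the most widely shared integrin beta chain, averaged 619.6 ± 44.3 CPM in lot 12 males and 270.3 ± 9.91 CPM in lot 8 males. In females Itgb1 rose by 0.62 ± 0.16 (adjusted p = 0.00432, or 0.0694 without lot 12 female replicate 3). Itgb5, which pairs in a receptor able to activate latent TGF-beta, averaged 72.6 ± 8.27 CPM in lot 12 males and 29.4 ± 5.28 CPM in lot 8 males. In females Itgb5 rose by 1.09 ± 0.19 (adjusted p = 5.60e-05). Itga11 had a male log2 fold change of 3.94 (against 3.13 with all libraries) without lot 8 male replicate 4.

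Among 11 mesenchymal transition factors and cadherins, 4 were higher and 1 lower between the male lines, and 5 rose and 1 fell between the female lines, or 2 that rose without lot 12 female replicate 3. Snai2, a repressor of epithelial genes, averaged 14.3 ± 2.92 CPM in lot 12 males and 5.55 ± 0.545 CPM in lot 8 males. In females Snai2 rose by 1.63 ± 0.38 (adjusted p = 0.00218, or 0.0692 without lot 12 female replicate 3). N-cadherin (Cdh2) averaged 74.8 ± 11.04 CPM in lot 12 males and 41.1 ± 11.1 CPM in lot 8 males and rose in lot 12 females by 1.08 ± 0.16 (adjusted p = 7.23e-06). Vimentin (Vim), the intermediate filament of astrocytes and mesenchymal cells, was lower, at 3284 ± 313 CPM in lot 12 males and 4921 ± 207 CPM in lot 8 males. Its female fall (-0.28 ± 0.08, adjusted p = 0.0127) lost its call without lot 12 female replicate 2 or 3 or lot 8 female replicate 1. Of 11 tubulins, 5 were higher between the male lines, and 2 rose and 2 fell between the female lines; both falls lost their call without lot 12 female replicate 3. Tubb2a, a beta-tubulin with near-identical relatives that share reads, averaged 231 ± 7.46 CPM in lot 12 males and 55.6 ± 5.397 CPM in lot 8 males. In females Tubb2a rose by 1.56 ± 0.12 (adjusted p = 1.39e-12). The neuronal tubulin Tubb3 averaged 39.3 ± 16.5 CPM in lot 12 males and 6.75 ± 1.45 CPM in lot 8 males, and 13.1 ± 3.703 CPM in lot 12 females and 11.7 ± 4.74 CPM in lot 8 females (adjusted p = 0.81).

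Growth factors and their carriers differed in composition. Of 6 insulin-like growth factor binding proteins tested, 4 were higher and 1 lower between the male lines, and 2 rose and 1 fell between the female lines. Igfbp2 had 76.8, 122 and 94.8 CPM in lot 12 males and 1.27, 2.31, 3.25 and 3.21 CPM in lot 8 males. In females Igfbp2 rose by 4.56 ± 0.35 (adjusted p = 1.33e-12). Igfbp5 had 16.2, 15.3 and 95.8 CPM in lot 12 males and 0.844, 1.73, 0.765 and 0.178 CPM in lot 8 males. In females Igfbp5 rose by 4.25 ± 0.55 (adjusted p = 3.19e-07). Of 24 secreted growth factors, 5 were higher and 2 lower between the male lines, and 4 rose and 3 fell between the female lines. Bdnf, the brain-derived neurotrophic factor, averaged 81.3 ± 25.4 CPM in lot 12 males and 19.2 ± 5.02 CPM in lot 8 males and rose in lot 12 females by 2.50 ± 0.27 (adjusted p = 1.08e-08). Pleiotrophin (Ptn) averaged 18.1 ± 12.4 CPM in lot 12 males and 0.960 ± 1.41 CPM in lot 8 males. In females Ptn rose by 3.13 ± 0.66 (adjusted p = 7.68e-04). Areg, the EGF receptor ligand amphiregulin, was lower, at 6.46 ± 2.23 CPM in lot 12 males and 37.3 ± 7.26 CPM in lot 8 males. In females Areg fell (log2 fold change -2.68 ± 0.35, adjusted p = 2.92e-07). Igf1, with 7.896 ± 2.800 CPM in lot 12 males and 0.422 ± 0.423 CPM in lot 8 males, was among the widest female differences, at 46.7 ± 22.4 CPM in lot 12 and 0.927 ± 0.930 CPM in lot 8 (log2 fold change 5.54 ± 0.52, adjusted p = 2.07e-10). Igfbp5 had a male log2 fold change of 4.15 (against 5.59 with all libraries) without lot 12 male replicate 3. Igfbp5 had a female log2 fold change of 3.23 (against 4.25 with all libraries) without lot 12 female replicate 3. Ptn had a male log2 fold change of 6.02 (against 4.20 with all libraries) without lot 8 male replicate 3. Igf1 had a male log2 fold change of 4.84 (against 4.13 with all libraries) without lot 8 male replicate 2. Igf1 had a female log2 fold change of 6.52 (against 5.54 with all libraries) without lot 8 female replicate 4.

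Receptor tyrosine kinases also differed. Of 20, 5 were higher and 2 lower between the male lines, and 7 rose and 1 fell between the female lines, with 5 in common. Pdgfrb, the PDGF receptor of mesenchymal cells and pericytes, had 57.3, 71.1 and 51.1 CPM in lot 12 males and 10.1, 15.6, 20.7 and 16.6 CPM in lot 8 males. In females Pdgfrb rose by 3.57 ± 0.33 (adjusted p = 1.30e-10). Egfr, the receptor for amphiregulin, averaged 11.1 ± 5.56 CPM in lot 12 males and 3.36 ± 1.96 CPM in lot 8 males. In females Egfr rose by 1.86 ± 0.41 (adjusted p = 0.00121). Epha2, an ephrin receptor, averaged 8.44 ± 2.16 CPM in lot 12 males and 20.1 ± 3.02 CPM in lot 8 males. In females Epha2 fell (log2 fold change -1.94 ± 0.25, adjusted p = 2.80e-07). Downstream, 15 ERK feedback genes gave 2 higher and 2 lower between the male lines, and 1 that rose and 2 that fell between the female lines. Etv4, an ETS factor induced by ERK, had 1.62, 1.996 and 2.83 CPM in lot 12 males and 20.3, 17.5, 18.9 and 14.3 CPM in lot 8 males. In females Etv4 fell (log2 fold change -3.25 ± 0.32, adjusted p = 1.02e-09). Dusp1, a phosphatase of MAP kinases that overlaps Ergic1, averaged 59.9 ± 16.7 CPM in lot 12 males and 34.02 ± 3.93 CPM in lot 8 males and rose in lot 12 females by 1.75 ± 0.19 (adjusted p = 1.31e-08). Of 17 AP-1 and immediate early genes, 6 were higher and 2 lower between the male lines, and 1 rose and 3 fell between the female lines, or 1 that fell without lot 8 female replicate 4. Fosl1, an AP-1 subunit that overlaps Ccdc85b, averaged 110.1 ± 36.1 CPM in lot 12 males and 243 ± 47.5 CPM in lot 8 males and fell in lot 12 females (log2 fold change -0.94 ± 0.21, adjusted p = 0.00127). Of 14 Wnt and Notch genes, 4 were higher and 1 lower between the male lines and 3 rose between the female lines, among them the ligand Wnt5a, which averaged 14.1 ± 3.08 CPM in lot 12 males and 0.942 ± 0.440 CPM in lot 8 males (female log2 fold change 2.12 ± 0.40, adjusted p = 2.03e-04).

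Beyond the lists, the widest differences of the male pair with at least 30 CPM in the higher line included several cartilage and connective tissue genes. Col2a1, the collagen of cartilage, had 85.4, 142 and 40.8 CPM in lot 12 males and 0.633, 0.385, 1.72 and 0.178 CPM in lot 8 males. Its libraries differed widely within lot 12, and in females it averaged 14.3 ± 3.81 CPM in lot 12 and 5.05 ± 3.51 CPM in lot 8, short of the threshold (log2 fold change 1.49 ± 0.59, adjusted p = 0.0827). Ogn, the small proteoglycan osteoglycin, averaged 34.98 ± 7.18 CPM in lot 12 males and 0.573 ± 0.289 CPM in lot 8 males. In females Ogn rose by 5.05 ± 0.59 (adjusted p = 4.50e-08); its gene lies within Cenpp, on the opposite strand. Prelp, a related proteoglycan that anchors basement membranes, averaged 83.8 ± 28.3 CPM in lot 12 males and 1.46 ± 1.01 CPM in lot 8 males. In females Prelp rose by 2.93 ± 0.36 (adjusted p = 1.22e-07). Mustn1, a small nuclear protein of the musculoskeletal system, averaged 38.2 ± 17.4 CPM in lot 12 males and 1.27 ± 0.733 CPM in lot 8 males. In females Mustn1 rose by 5.36 ± 0.59 (adjusted p = 9.93e-09). Col2a1 had a male log2 fold change of 7.77 (against 6.91 with all libraries) without lot 8 male replicate 3. Ogn had a female log2 fold change of 4.13 (against 5.05 with all libraries) without lot 12 female replicate 3.

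The other genes at the top of the male pair were of mixed kinds. Crym, a crystallin family protein that binds thyroid hormone, had 59.9, 88.3 and 44.99 CPM in lot 12 males and 0.211, 0.385, 0.191 and 1.25 CPM in lot 8 males and rose in lot 12 females by 3.35 ± 0.52 (adjusted p = 9.66e-06). Hspb1, a small heat shock protein that protects actin filaments, had 216, 164 and 528 CPM in lot 12 males and 6.75, 8.48, 10.7 and 9.44 CPM in lot 8 males. In females Hspb1 rose by 2.69 ± 0.34 (adjusted p = 2.01e-07). Akr1c19, an aldo-keto reductase, averaged 35.998 ± 6.14 CPM in lot 12 males and 0.602 ± 0.589 CPM in lot 8 males. In females Akr1c19 rose by 5.71 ± 0.55 (adjusted p = 4.76e-10). Nrep, a gene also called P311 that is linked to TGF-beta and myofibroblasts, averaged 119 ± 33.7 CPM in lot 12 males and 2.08 ± 0.954 CPM in lot 8 males. In females Nrep rose by 4.10 ± 0.56 (adjusted p = 6.80e-07). Each of these had lot 12 libraries wholly above lot 8 libraries in each sex. At the top of the female pair, among genes with at least 30 CPM in the higher line, Fxyd6, a modulator of the sodium pump, averaged 49.9 ± 8.95 CPM in lot 12 females and 0.344 ± 0.572 CPM in lot 8 females (log2 fold change 7.25 ± 0.92, adjusted p = 2.16e-07), and 12.5 ± 2.85 CPM in lot 12 males and 0.277 ± 0.320 CPM in lot 8 males. Nkain4, a neighbour of that pump, averaged 45.4 ± 10.4 CPM in lot 12 females and 1.36 ± 0.258 CPM in lot 8 females (adjusted p = 8.53e-11), and 45.7 ± 6.36 CPM in lot 12 males and 2.01 ± 1.29 CPM in lot 8 males. Crym had a male log2 fold change of 7.82 (against 6.88 with all libraries) without lot 8 male replicate 4. Hspb1 had a male log2 fold change of 4.42 (against 5.09 with all libraries) without lot 12 male replicate 3. Akr1c19 had a male log2 fold change of 6.76 (against 5.90 with all libraries) without lot 8 male replicate 1. Nrep had a female log2 fold change of 2.78 (against 4.10 with all libraries) without lot 12 female replicate 3. Fxyd6 had a female log2 fold change of 9.22 (against 7.25 with all libraries) without lot 8 female replicate 1.

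On the lower side, Lgals3 had the widest difference of the male pair among genes with at least 30 CPM in the higher line. Lgals3, galectin-3, had 43.4, 37.8 and 63.6 CPM in lot 12 males and 1679.7, 1443, 1594 and 830.2 CPM in lot 8 males, a log2 fold change of -4.84 ± 0.44. It fell in females as well, with 413, 395 and 310.3 CPM in lot 12 and 1299, 1264, 1354 and 1059 CPM in lot 8 (log2 fold change -1.74 ± 0.37, adjusted p = 8.60e-04). Gchfr, the feedback regulator of tetrahydrobiopterin synthesis, had 114, 81.6 and 50.8 CPM in lot 12 males and 1237, 1248, 1189 and 581.7 CPM in lot 8 males, where replicate 4 was lower than the other 3 and still above the lot 12 libraries. It fell in lot 12 females (log2 fold change -3.17 ± 0.38, adjusted p = 6.32e-08). Krt19, a keratin of simple epithelia, averaged 5.77 ± 1.995 CPM in lot 12 males and 66.1 ± 18.2 CPM in lot 8 males. In females Krt19 fell (log2 fold change -2.47 ± 0.46, adjusted p = 1.57e-04). Of 10 keratin and cornified envelope genes, 3 were higher and 3 lower in the male pair, and 3 rose and 3 fell in the female pair, with 2 called in opposite directions. Upp1, uridine phosphorylase, averaged 6.62 ± 3.39 CPM in lot 12 males and 49.2 ± 13.3 CPM in lot 8 males. In females Upp1 fell (log2 fold change -2.48 ± 0.31, adjusted p = 1.20e-07). Rasgrf1, an exchange factor that activates Ras, averaged 2.55 ± 2.87 CPM in lot 12 males and 42.4 ± 4.63 CPM in lot 8 males. Its female fall (log2 fold change -1.44 ± 0.43, adjusted p = 0.0164) lost its call without lot 12 female replicate 2 or 3. Rasgrf1 had a male log2 fold change of -5.15 (against -3.95 with all libraries) without lot 12 male replicate 3.

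Ribosomal protein genes were lower as a group. Of 80 tested, 57 were lower and 1 higher between the male lines (median -0.46), and 41 fell between the female lines (median -0.30), of which 35 were lower in both. The female count was 18 without lot 12 female replicate 3. These genes held 21.8 ± 1.80% of all counts in lot 12 males and 26.5 ± 0.34% in lot 8 males, and 20.8 ± 1.70% in lot 12 females and 23.7 ± 1.19% in lot 8 females (SD over libraries). Rpl26 averaged 4028 ± 324 CPM in lot 12 males and 7251 ± 274 CPM in lot 8 males and fell in lot 12 females by 0.31 (-0.31 ± 0.08, adjusted p = 0.0058, or 0.104 without lot 12 female replicate 3). Rpl21 averaged 3138 ± 567 CPM in lot 12 males and 5616 ± 440.2 CPM in lot 8 males. In females Rpl21 fell (-0.59 ± 0.10, adjusted p = 2.59e-05). Many ribosomal genes have near-identical copies that can share reads, and the part of library composition in this difference was not tested.

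Cell division genes moved slightly. Of 30 S phase and mitosis genes, 7 were lower between the male lines (median -0.18), with 3 lower without lot 12 male replicate 3, and 1 fell between the female lines. Birc5, survivin, averaged 395 ± 90.6 CPM in lot 12 males and 665 ± 33.9 CPM in lot 8 males, with a female log2 fold change of -0.44 ± 0.17 (adjusted p = 0.0673). Of 11 G1 cyclins and CDK inhibitors, 3 were higher and 1 lower between the male lines, and 1 rose and 1 fell between the female lines; the 3 were 1 without lot 8 male replicate 4, and 3 were lower without lot 12 male replicate 3. Ccnd2, cyclin D2, rose in lot 12 females, to 444 ± 111 CPM against 117 ± 23.5 CPM in lot 8 females (log2 fold change 1.92 ± 0.17, adjusted p = 5.78e-11), and averaged 317 ± 124 CPM in lot 12 males and 185 ± 9.47 CPM in lot 8 males. Cdkn1a, the CDK inhibitor p21, averaged 6.499 ± 3.29 CPM in lot 12 males and 19.9 ± 7.28 CPM in lot 8 males, with a female log2 fold change of -0.90 ± 0.45 (adjusted p = 0.185). Of 18 genes tested in the p53 target list, which also holds Trp53 itself, 3 were higher and 3 lower between the male lines. Between the female lines 2 rose and 4 fell, both rises being lost without lot 12 female replicate 3. Ccng1, cyclin G1, averaged 20.8 ± 9.07 CPM in lot 12 males and 56.7 ± 9.31 CPM in lot 8 males (female adjusted p = 0.275). Trp53 fell in lot 12 females (-0.61 ± 0.13, adjusted p = 8.62e-04) and is 1 of the 4 female falls of the p53 target list.

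Genes of the integrated stress response, a programme that the factor ATF4 runs when translation is restrained, were higher. Of 16, 7 were higher and 1 lower between the male lines (median 0.59), and 7 rose between the female lines (median 0.56), with 5 in common. Nupr1, a stress-induced nuclear protein, had 425, 173 and 762 CPM in lot 12 males and 67.5, 41.99, 37.9 and 47.6 CPM in lot 8 males and rose in lot 12 females by 2.11 ± 0.38 (adjusted p = 9.38e-05). Ddit3, the factor CHOP, averaged 38.5 ± 11.1 CPM in lot 12 males and 12.97 ± 3.42 CPM in lot 8 males. In females Ddit3 rose by 1.91 ± 0.28 (adjusted p = 4.28e-06); it overlaps Mars on the opposite strand. Asns, asparagine synthetase, averaged 148 ± 28.7 CPM in lot 12 males and 88.9 ± 10.1 CPM in lot 8 males. In females Asns rose by 0.68 ± 0.13 (adjusted p = 2.65e-04). Of 17 endoplasmic reticulum chaperones, 6 were higher between the male lines and 2 rose between the female lines. Herpud1, a part of the degradation machinery of the endoplasmic reticulum, averaged 134 ± 14.02 CPM in lot 12 males and 43.8 ± 11.8 CPM in lot 8 males. In females Herpud1 rose by 0.87 ± 0.18 (adjusted p = 5.82e-04). Nupr1 had a male log2 fold change of 2.62 (against 3.22 with all libraries) without lot 12 male replicate 3. Nupr1 had a female log2 fold change of 1.32 (against 2.11 with all libraries) without lot 12 female replicate 3.

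Many antioxidant genes fell between the female lines, and the male split depended on the setting. Of 20, 5 were lower and 2 higher between the male lines, or 2 lower and 3 higher without lot 12 male replicate 3 and 2 lower and 3 higher with library totals alone. In the female pair 11 fell (median -0.51); without lot 12 female replicate 3, 7 fell. Gstm1, a glutathione transferase with close relatives, averaged 122 ± 21.99 CPM in lot 12 males and 289.7 ± 70.6 CPM in lot 8 males and fell in lot 12 females (-1.59 ± 0.27, adjusted p = 4.20e-05). Txn1, thioredoxin, averaged 874 ± 154 CPM in lot 12 males and 1214 ± 44.2 CPM in lot 8 males. In females Txn1 fell (-0.78 ± 0.11, adjusted p = 4.00e-06).

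In energy and lipid metabolism the groups split. Of 21 glycolysis and hypoxia genes, 4 were higher and 4 lower between the male lines, and 3 rose and 6 fell between the female lines; the 4 lower genes of the male pair were 2 without lot 12 male replicate 3. Slc2a1, the glucose transporter GLUT1, averaged 7.16 ± 0.970 CPM in lot 12 males and 23.2 ± 3.84 CPM in lot 8 males. In females Slc2a1 fell (-1.45 ± 0.22, adjusted p = 7.46e-06). The vasodilator peptide adrenomedullin (Adm), induced by hypoxia, had 23.9, 29.5 and 16.1 CPM in lot 12 males and 0.844, 0.770, 0.383 and 0.534 CPM in lot 8 males and rose in lot 12 females by 2.24 ± 0.30 (adjusted p = 5.61e-07). Pfkp, a phosphofructokinase that overlaps Pitrm1, averaged 93.1 ± 21.03 CPM in lot 12 males and 13.3 ± 5.75 CPM in lot 8 males. In females Pfkp rose by 1.01 ± 0.34 (adjusted p = 0.0386), a call lost without lot 12 female replicate 3 or lot 8 female replicate 1 or 2. Of 25 sterol and fatty acid synthesis genes, 5 were lower between the male lines, and 1 rose and 1 fell between the female lines. Elovl6, a fatty acid elongase, averaged 17.1 ± 3.92 CPM in lot 12 males and 38.8 ± 9.54 CPM in lot 8 males. In females Elovl6 fell (-0.82 ± 0.26, adjusted p = 0.026), a call lost without lot 12 female replicate 2 or 3 or lot 8 female replicate 1 or 4. Nsdhl, an enzyme of cholesterol synthesis, averaged 15.4 ± 6.09 CPM in lot 12 males and 38.7 ± 8.79 CPM in lot 8 males (female adjusted p = 0.572). Of 80 respiratory chain subunits, 9 were higher and 17 lower between the male lines, or 17 and 12 with library totals alone. Between the female lines 8 rose and 7 fell, or 16 and 6 with library totals alone, and 3 fell without lot 12 female replicate 3. Of 19 lysosomal genes, 10 were higher and 1 lower between the male lines, and 11 rose and 2 fell between the female lines, or 5 and 2 without lot 12 female replicate 3 and 7 that rose without lot 8 female replicate 4. Ctsd, cathepsin D, averaged 672 ± 169 CPM in lot 12 males and 427 ± 56.04 CPM in lot 8 males. In females Ctsd rose by 1.04 ± 0.18 (adjusted p = 6.72e-05). Ctsh, cathepsin H, was lower, at 3.18 ± 0.438 CPM in lot 12 males and 28.8 ± 6.45 CPM in lot 8 males, and fell in lot 12 females (-2.62 ± 0.29, adjusted p = 1.88e-08).

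Inflammatory genes differed by list. In the female test the NF-kB targets were called in both directions (median -0.10). With all libraries more interferon-stimulated genes rose than fell (median 1.56), but not without lot 12 female replicate 3 (median 0.44). The 23 NF-kB targets held 5 higher and 1 lower gene between the male lines, and 4 rose and 3 fell between the female lines; without lot 12 female replicate 3, only 2 that fell passed, and the 5 of the male pair were 3 without lot 12 male replicate 3 or lot 8 male replicate 4. Cx3cl1, the chemokine fractalkine, averaged 103 ± 9.55 CPM in lot 12 males and 24.99 ± 2.19 CPM in lot 8 males. In females Cx3cl1 rose by 0.75 ± 0.19 (adjusted p = 0.00432, or 0.0755 without lot 12 female replicate 3). Ptgs2, cyclooxygenase 2, averaged 38.2 ± 10.9 CPM in lot 12 males and 16.7 ± 1.91 CPM in lot 8 males (female adjusted p = 0.602). Of 20 interferon-stimulated genes, 4 were higher and 1 lower between the male lines, and 6 rose and 1 fell between the female lines, or 1 and 1 without lot 12 female replicate 3. Ifi35, the member called lower in each pair, averaged 7.32 ± 2.34 CPM in lot 12 males and 18.4 ± 6.54 CPM in lot 8 males. In females Ifi35 fell (-1.86 ± 0.38, adjusted p = 4.75e-04). Of 15 IL-6 family and STAT3 genes, 3 were higher between the male lines, and 4 rose and 1 fell between the female lines, or 1 that rose without lot 12 female replicate 3. MHC class I genes, whose members share reads, gave 3 higher and 1 lower of 10 between the male lines, and 1 that rose between the female lines, or 0 without lot 12 female replicate 3 or lot 8 female replicate 4. Ifi35 had a female log2 fold change of -2.67 (against -1.86 with all libraries) without lot 12 female replicate 3.

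Markers of brain cell types were examined for the label and for other cells. Of the markers that define mature astrocytes, Gfap averaged 0 CPM in lot 12 males and 0.498 CPM in lot 8 males, Aqp4 averaged 0.712 and 0.0963 CPM in these lines, and Gjb6 had no count in the 4 lines. Gja1, the astrocyte gap junction protein, averaged 156 CPM in lot 12 males and 134 CPM in lot 8 males, and the glial factor Sox9 averaged 13.2 and 18.8 CPM. Glutamine synthetase (Glul) averaged 9.08 CPM in lot 12 males and 8.63 CPM in lot 8 males. In females Glul averaged 6.06 CPM in lot 12 and 15.4 CPM in lot 8. The glutamate transporter Slc1a3 averaged 2.87 CPM in lot 12 males and 1.99 CPM in lot 8 males. In females Slc1a3 averaged 3.95 CPM in lot 12 and 0.044 CPM in lot 8. Of 11 astrocyte markers tested, 3 were higher between the male lines, and 4 rose and 1 fell between the female lines. The summed astrocyte list ranged from 287 to 815 CPM in lot 12 male libraries and from 173 to 211 CPM in lot 8 male libraries, and the difference came mostly from Apoe and Clu, secreted lipid carriers. Apoe had 28.8, 459 and 36.9 CPM in lot 12 males and 8.23, 9.44, 11.7 and 14.1 CPM in lot 8 males and rose in lot 12 females by 3.40 ± 0.64 (adjusted p = 1.63e-04). Clu, clusterin, averaged 123 ± 68.6 CPM in lot 12 males and 10.5 ± 2.56 CPM in lot 8 males. In females Clu rose by 3.40 ± 0.31 (adjusted p = 1.09e-10). Apoe had a male log2 fold change of 1.60 (against 4.01 with all libraries) without lot 12 male replicate 2. Apoe had a female log2 fold change of 2.59 (against 3.40 with all libraries) without lot 12 female replicate 2.

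Neural progenitor genes were higher between the male lines. Of 8, 5 were higher, or 3 without lot 12 male replicate 3; between the female lines 0 of 8 passed in edgeR's test, with 1 at an unadjusted p under 0.05 and 0 in DESeq2, and the difference between the pairs was not tested. Their summed level ranged from 251 to 344 CPM in lot 12 male libraries and from 108 to 151 CPM in lot 8 male libraries. Sox11, a factor of immature neural cells, had 40.8, 34.5 and 36.9 CPM in lot 12 males and 6.33, 6.36, 5.16 and 10.3 CPM in lot 8 males, and 24.1 ± 3.53 CPM in lot 12 females and 26.01 ± 6.43 CPM in lot 8 females (adjusted p = 0.868). Nestin (Nes) averaged 164 ± 37.9 CPM in lot 12 males and 61.7 ± 10.4 CPM in lot 8 males, and 98.7 ± 13.6 and 76.98 ± 11.2 CPM in the lot 12 and lot 8 females (adjusted p = 0.29).

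Contractile genes are also expressed by pericytes and smooth muscle, so their markers were examined too. Of 8 pericyte markers, 5 had no count in the lot 12 male line, among them Rgs5, Kcnj8 and Abcc9, which define the type and had no count in any of the 4 lines. The summed pericyte list was 86.6 to 104 CPM in lot 12 male libraries and 18.99 to 36.2 CPM in lot 8 male libraries, nearly all of it from Pdgfrb and Mcam, whose part in the result was not tested. The third marker that could be tested, Cspg4 (the NG2 proteoglycan), was lower, with no count in the lot 12 male line and 2.53 CPM in the lot 8 male line; it averaged 1.21 CPM in lot 12 females and 7.06 CPM in lot 8 females and did not pass there with all libraries. The smooth-muscle markers Myh11 and Des were too low to test. Of 9 endothelial markers, Cdh5, Cldn5 and Emcn had no count in the 4 lines, and the list summed to 2.28 to 12.8 CPM in lot 12 male libraries and 3.27 to 7.66 CPM in lot 8 male libraries. Egfl7, the endothelial marker that could be tested, averaged 6.87 CPM in lot 12 males and 4.44 CPM in lot 8 males, and rose to 24.98 CPM in lot 12 females, against 6.29 CPM in lot 8 females. Of 12 microglia and macrophage markers, 7 had no count in either male line, among them Itgam, C1qa and Adgre1, and the list summed to 4.77 to 10.4 CPM in lot 12 male libraries and 2.31 to 9.71 CPM in lot 8 male libraries. Tmem119 of that list was higher, at 5.54 CPM in lot 12 males and 0.620 CPM in lot 8 males, and rose to 5.72 CPM in lot 12 females, against 0.515 CPM in lot 8 females. Its male call was lost without lot 8 male replicate 4, and its female call without lot 12 female replicate 3 or lot 8 female replicate 4. Cd68, the other of the 2 tested members of that list, went the other way and was not called. Its level was 2.46 CPM in lot 12 males and 4.20 CPM in lot 8 males. In females Cd68 averaged 4.68 CPM in lot 12 and 6.29 CPM in lot 8. Of 8 oligodendrocyte markers, Olig1, Olig2, Sox10, Mog and Mag had no count in the 4 lines, and the list summed to 9.05 to 16.8 CPM in lot 12 male libraries and 7.84 to 10.02 CPM in lot 8 male libraries. The fibroblast and meningeal list summed to 35.8 to 63.1 CPM in lot 12 male libraries and 102 to 182 CPM in lot 8 male libraries. Of its 5 tested members 1 was higher and 2 lower between the male lines, and 1 rose and 1 fell between the female lines. S100a4, a calcium-binding protein of fibroblasts that makes up most of that list, averaged 45.8 ± 21.2 CPM in lot 12 males and 142 ± 41.8 CPM in lot 8 males. In females S100a4 fell (-2.96 ± 0.34, adjusted p = 3.26e-08). Thy1, a surface glycoprotein of fibroblasts and neurons, went the other way, at 2.44 CPM in lot 12 males and 0.242 CPM in lot 8 males, where it was not called without lot 12 male replicate 3, and rose to 13.4 CPM in lot 12 females, against 0.270 CPM in lot 8 females. The defining fibroblast markers Fap and Dpt had no count in the 4 lines, and Pdgfra averaged 0.296 CPM in lot 12 males and 0.0891 CPM in lot 8 males.

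Some genes ran in opposite directions in the sexes, with every library of a line on one side. S100a16, a calcium-binding protein, had 18.1, 30.7 and 21.8 CPM in lot 12 males and 0.211, 1.93, 1.15 and 1.96 CPM in lot 8 males, but 14.2, 13.8 and 20.2 CPM in lot 12 females and 149, 214, 161 and 98.3 CPM in lot 8 females (female log2 fold change -3.27 ± 0.41, adjusted p = 2.01e-07). Efemp1, the matrix protein fibulin-3, averaged 214 ± 70.4 CPM in lot 12 males and 69.2 ± 10.6 CPM in lot 8 males, and 59.1 ± 5.25 CPM in lot 12 females and 189 ± 29.1 CPM in lot 8 females (-1.68 ± 0.27, adjusted p = 1.71e-05). Ces1g, a carboxylesterase with near-identical relatives, averaged 5.63 ± 1.86 CPM in lot 12 males and 33.4 ± 3.72 CPM in lot 8 males, and 10.6 ± 4.599 CPM in lot 12 females and 2.24 ± 1.53 CPM in lot 8 females (2.24 ± 0.45, adjusted p = 3.91e-04). The chemokine Ccl2 averaged 13.5 ± 4.37 CPM in lot 12 males and 6.23 ± 1.49 CPM in lot 8 males, and 6.15 ± 0.803 CPM in lot 12 females and 29.9 ± 14.2 CPM in lot 8 females (-2.28 ± 0.39, adjusted p = 5.46e-05). Klf4, a factor that represses contractile genes in vascular smooth muscle, averaged 19.1 ± 2.26 CPM in lot 12 males and 5.85 ± 1.14 CPM in lot 8 males, and 13.6 ± 2.55 CPM in lot 12 females and 22.5 ± 4.22 CPM in lot 8 females (-0.73 ± 0.23, adjusted p = 0.0234). That call was lost without lot 12 female replicate 1 or 2 or lot 8 female replicate 2 or 4. Sprr1a, a cornified envelope protein, averaged 13.9 ± 16.5 CPM in lot 12 males and 114 ± 34.02 CPM in lot 8 males, and 5.86 ± 1.64 CPM in lot 12 females and 2.03 ± 1.39 CPM in lot 8 females (adjusted p = 0.104). Other genes at the lower end of the female pair, with at least 30 CPM in the higher line, overlapped in males. C1qtnf12, a secreted C1q-related protein, averaged 3.82 ± 2.31 CPM in lot 12 females and 84.5 ± 10.3 CPM in lot 8 females, and 5.17 ± 1.93 and 3.55 ± 4.08 CPM in the lot 12 and lot 8 males (female log2 fold change -4.47 ± 0.59, adjusted p = 4.64e-07). The adhesion molecule Mpzl2 averaged 5.600 ± 3.78 CPM in lot 12 females and 67.00 ± 6.504 CPM in lot 8 females, and 0.369 ± 0.119 and 0.326 ± 0.228 CPM in the lot 12 and lot 8 males (female log2 fold change -3.59 ± 0.45, adjusted p = 2.00e-07). Sprr1a had a male log2 fold change of -4.75 (against -3.01 with all libraries) without lot 12 male replicate 3. Mpzl2 had a female log2 fold change of -4.27 (against -3.59 with all libraries) without lot 12 female replicate 3.

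The imprinted gene Grb10, an adaptor that restrains growth factor receptors, averaged 44.9 ± 8.402 CPM in lot 12 males and 1.66 ± 1.26 CPM in lot 8 males, and 28.2 ± 5.87 CPM in lot 12 females and 19.03 ± 7.196 CPM in lot 8 females (adjusted p = 0.342). Of 9 imprinted genes, 4 were higher and 1 lower between the male lines and 3 rose between the female lines, with 0 called in the same direction in both and 1 in opposite directions.

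Median fold changes differed between chromosomes. The 5209 genes whose average log2 CPM reached 4 had a median log2 fold change of -0.04 in the male pair and -0.05 in the female pair. Of them 14.5% were higher and 17.7% lower in the male pair, and 10% rose and 13.2% fell in the female pair. In males the median was 0.30 on chromosome 15 (226 genes, 73 higher and 11 lower) and 0.28 on chromosome 10 (257 genes, 84 higher and 8 lower), against -0.32 on chromosome 11 (449 genes, 19 higher and 162 lower) and -0.27 on chromosome 3 (271 genes, 22 higher and 89 lower). In females the same chromosomes had medians of 0.15, 0.03, -0.16 and -0.10, and the lowest was chromosome 4, at -0.28 (316 genes, 9 higher and 95 lower), which carries Tpm2. Ccn2 and Col18a1 lie on chromosome 10 and Col2a1 and Myh9 on chromosome 15.

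**Figure D4:**
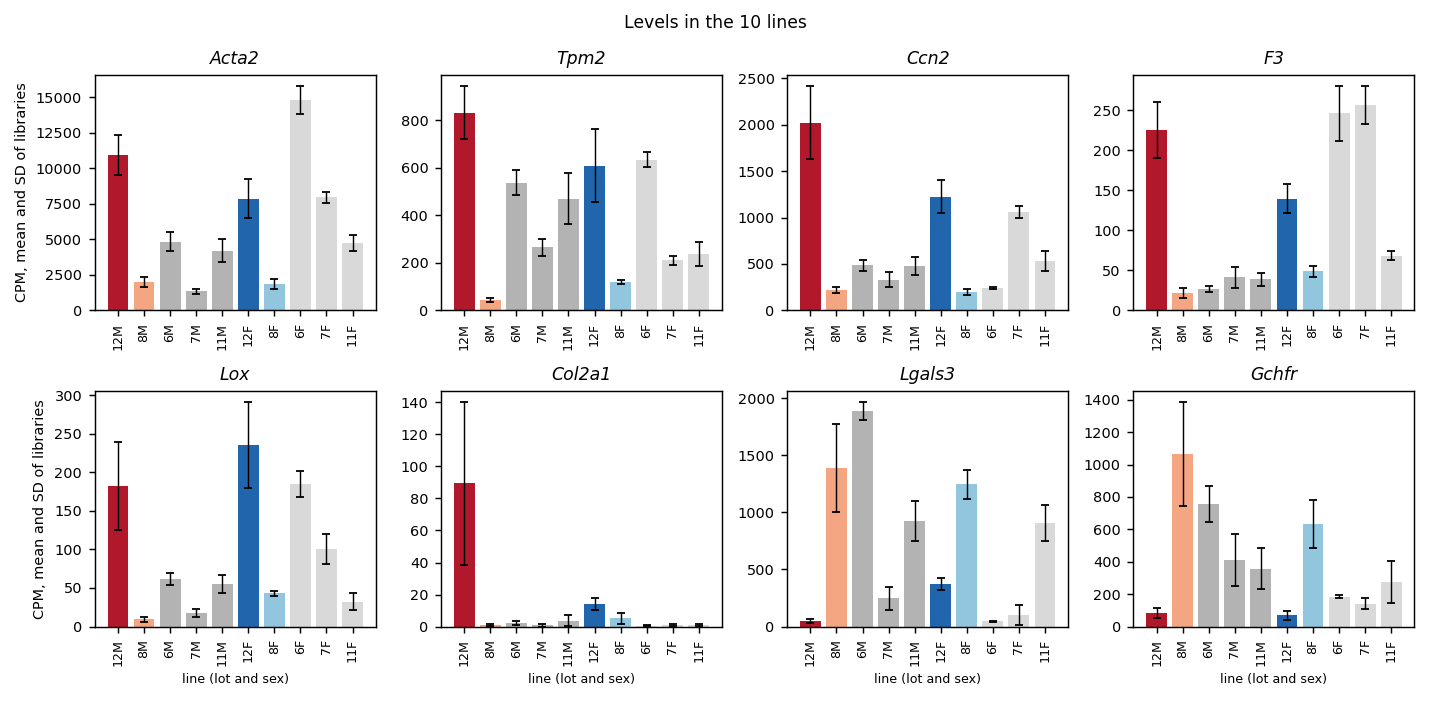
Mean CPM with SD over the libraries of each of the 10 lines (3 or 4 libraries per line) for 8 genes; 12M and 8M are the lot 12 and lot 8 male lines, 12F and 8F the female lines of those lots, and grey bars the other lots. The lot 12 male line is highest for Tpm2, Ccn2 and Col2a1 and the lot 8 male line lowest for Tpm2, F3 and Lox, while Lgals3 and Gchfr run nearly the other way.

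Across all 10 lines, the genes did not share a common order. Tpm2 was highest in the lot 12 male line, at 833 ± 113 CPM, and lowest in the lot 8 male line, at 42.7 ± 8.45 CPM; the lot 6 female line and the lot 12 female line followed the highest, at 634 ± 32.1 and 609 ± 155 CPM, which differed by less than the spread of the lot 12 female libraries. Acta2 was highest in the lot 6 female line, at 14807 ± 1006 CPM, ahead of the lot 12 male line, and the lot 7 female and lot 12 female lines did not differ beyond their spread, at 7966 ± 398 and 7863 ± 1373 CPM. Ccn2 separated from the contractile genes in the lot 6 female line, which had 239.7 ± 10.9 CPM, close to the 222 ± 28.99 CPM of the lot 8 male line. F3 was highest in the lot 7 and lot 6 female lines, at 257 ± 24.1 and 246 ± 34.3 CPM, which overlapped the 225 ± 34.8 CPM of the lot 12 male line. Lox was highest in the lot 12 female line, at 235 ± 55.7 CPM, and lowest in the lot 8 male line, at 9.21 ± 3.18 CPM. Lgals3 was lowest in the lot 6 female and lot 12 male lines, at 44.97 ± 7.32 and 48.3 ± 13.6 CPM, the pair of lines with the most Acta2, and highest in the lot 6 male line, at 1885 ± 80.9 CPM. Gchfr was lowest in the lot 12 female and lot 12 male lines and highest in the lot 8 male line. Col2a1 stood out in a single line: after 89.5 ± 50.8 CPM in the lot 12 male line, the next was the lot 12 female line with 14.3 ± 3.81 CPM.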

How the data were processed

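Whole-transcript-end counts were deposited as raw counts per gene for 36 BRB-seq libraries of 10 mouse astrocyte lines; GRCm38, STAR 2.7.6a, Subread 2.0.2 and cutadapt 2.10 are listed, without their roles, per the submitters' processing notes, while molecular-identifier collapse, strand setting and annotation release are not given in the sources used here. Of 46078 genes, 45229 matched GENCODE M21 by ID for symbols and positions; the others held 0.0295% of counts.

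Counts were fitted with edgeR 4.0.16 (R 4.3.3; quasi-likelihood test, TMM scaling, filterByExpr) over all 36 libraries with 1 coefficient per line. Lot 12 was contrasted with lot 8 within males, as a description, and within females, as the test; p-values were Benjamini-Hochberg adjusted over all genes, with a threshold of 0.05. The SE is the absolute log2 fold change divided by the square root of the test's F. CPM are counts divided by TMM-scaled library size. A ± beside a CPM or a percentage is the SD over libraries, and the SE includes the spread between libraries. The floor of 3 counts covers counting error only. The members and gene lists were chosen with earlier results of these data known. Genes were named by a rule: Acta2, Tpm2, Ccn2, F3, Nf1, Trp53 and all contractile genes; in each other list up to 4 called in the male pair with the largest change and at least 10 CPM in the higher line, filled to 2 by abundance; the 10 highest and 10 lowest of the male pair at 30 CPM or more, and 5 and 5 of the female pair. Predicted genes were skipped, and part of the named genes is given. The markers Cspg4, Egfl7, Tmem119, Cd68, Thy1, Glul and Slc1a3 were named after their values were seen. So were Col1a2, Loxl1, Timp1, Ccn1, Ankrd1, Axl, Nt5e, Cd44 and Itga3. No pair of libraries of a line was identical, and chi-square per degree of freedom between them ran from 5.47 to 22.3. On simulated counts for 11776 genes the fit recovered 97% of 4-fold and 60% of 2-fold changes in the male contrast, and 95% and 54% in the female contrast. In each contrast 100 genes per fold were changed, drawn only from genes above a minimum mean level. No other gene differed between the lines compared, unlike in the real pairs, so these rates do not cover genes of low level. Alternatives were DESeq2 1.42.0, other scalings and filters, the 2 lines of each pair alone, and a replicate block. Each library, and replicate 4 of all lines, was also left out. Counts of list members without the libraries that stood apart were added after seeing the data.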

Additional observations from a re-analysis of the deposited data

Results flagged for a closer look

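In 197 groups of 4 lot 8 libraries, 18 had 1 library far from the other 3, where chance gives about 1 in 20 groups. In the lot 8 male line, F3 was 12.5 CPM in replicate 1 (others 24.3 to 25.3) and Cnn1 was 8.86 CPM in replicate 1 (others 13.5 to 14.1). Replicate 4 of that line was high for Lmod1, at 7.30 CPM (others 1.16 to 1.69), Col12a1, at 16.0 CPM (others 3.27 to 5.36), and C1qtnf12, at 9.62 CPM (others 0.765 to 1.93), and low for Gchfr, at 581.7 CPM (others 1189 to 1248). Replicate 4 was also the library with the least mitochondrial mRNA; its part in these values was not tested.

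In the lot 8 female line, replicate 1 stood apart for Lox, at 48.4 CPM, and for Timp3, at 5.25 CPM. Replicate 2 stood apart for Bmp4, at 26.2 CPM, Itgb5, at 43.0 CPM, and Nkain4, at 1.75 CPM. Replicate 3 stood apart for Lmod1, at 8.92 CPM, and Ddit3, at 8.74 CPM. Replicate 4 stood apart for Serpinf1, at 7.21 CPM, Ptn, at 0.880 CPM, Nes, at 93.8 CPM, Birc5, at 520.3 CPM, and Mpzl2, at 57.3 CPM.

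Of the genes described by name, 108 were examined for opposite directions. In 7 of these, lot 12 libraries lay wholly to one side of lot 8 libraries in males and to the other in females. The difference between the sexes was not tested. Over all 12173 genes, lot 12 libraries lay wholly above in 1646 and wholly below in 1535 in males, and in 1536 and 1339 in females. Opposite separation was not counted over all genes, and many named genes were chosen for large male changes. The female and male log2 fold changes were -0.43 and 3.39 for Col18a1, -1.68 and 1.63 for Efemp1, -2.28 and 1.12 for Ccl2, and -0.73 and 1.70 for Klf4. They were -3.27 and 4.12 for S100a16, 1.58 and -3.01 for Sprr1a, and 2.24 and -2.56 for Ces1g.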

How the results depend on the processing

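For 108 of the genes described by name, no called fold change turned its direction under the alternatives run. Leaving out 1 library gave 1159 to 1295 genes higher and 897 to 1114 lower in males, 698 to 999 higher and 525 to 843 lower in females, and 599 to 880 called alike in both. The female lows came without lot 12 female replicate 3. Leaving out replicate 4 of every line that has one gave 1342 higher and 1050 lower in males, and 931 and 774 in females. DESeq2 called 1512 and 1221 genes in males and 1145 and 932 in females, and the lines compared alone gave 1038 and 831, and 762 and 607. The replicate block gave 1472 and 1290 in males and 1112 and 1021 in females; same-numbered libraries correlated between -0.0609 and 0.143 over 6 pairs, so the numbers were not taken to pair samples. Replicates of 1 line limit what the p-values cover.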
